A study of Mus musculus with 4 samples.

Results

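Complex I, the NADH:ubiquinone oxidoreductase of the inner mitochondrial membrane, is described here through the genes whose names start with Nduf. The tissue is tibialis anterior muscle of mice with 1 or both alleles of the tumour suppressor gene Nf1 floxed. Taking every such name in the per-library expression files gave 45 genes. Ndufs5, a subunit of the membrane arm, and Ndufaf7, an assembly factor, were listed at 0 in all 4 libraries and were set aside. That left 43 of the 32868 gene names. Whether a listing at 0 means that the RNA was absent was not tested. Ndufb1 and Ndufaf8 were not analysed here. Expression was measured by RNA sequencing in tibialis anterior, a shin muscle made mostly of fast fibres, from C57BL/6 mice at postnatal day 21. The Het group (2 libraries) carried the genotype Nf1flox/+/Myf5+, with 1 floxed Nf1 allele, and the Nf1-KO group (2 libraries) carried Nf1flox/flox/Myf5+, with both alleles floxed. Both groups thus carry Myf5+, which the labels do not spell out. In such crosses it usually stands for a Cre recombinase under the control of Myf5, a gene of muscle precursors, so that blood vessel, nerve and immune cells of the muscle would keep Nf1. The labels do not say whether the libraries of a group came from separate animals, so the p-values measure the spread between these libraries, which may be technical.

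Complex I passes electrons from NADH to ubiquinone and uses the energy released to pump protons out of the mitochondrial matrix. Its arm in the matrix consists of the N module, which oxidises NADH, and the Q module, which reduces ubiquinone. Its membrane arm, which pumps protons, has a proximal and a distal part. The catalytic core is made of 7 subunits encoded in the nucleus and 7 encoded in mitochondrial DNA, and the accessory subunits around it are encoded in the nucleus. Assembly factors build the modules and leave before the enzyme is complete. Slow and fast oxidative muscle fibres hold more mitochondria, and so more of this enzyme, than fast glycolytic fibres.

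Levels are given as deposited, in RPKM, that is reads divided by the length of the gene and by the depth of the library. Fold changes are of Nf1-KO over Het on the scale of log2(RPKM + 1), after the libraries were scaled to each other. Scaling lowers the Nf1-KO levels relative to Het, so a fold change is a little below the ratio of the deposited levels. A gene was said to rise or fall where limma, a linear model fitted across 10690 genes, gave a Benjamini-Hochberg adjusted p under 0.05. Among all those genes 24.9% rose and 25.4% fell.

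Promoter sequence is shown first for the members that hold a motif of 2 factors known for mitochondrial genes. RefSeq promoters (build GRCm38.p6, 250 bases before to 50 bases after each start) were found for 37 of the 43 members, in 39 promoters. The core letters of nuclear respiratory factor 1, GCATGCGC, were searched on both strands and occurred in 5 of these 39 promoters (12.8%), against 2.71% of 32851 promoters. The windows of the 4 members with these letters before the start are shown, and capitals mark the letters found. In Ndufa11 and Ndufaf4 the match on one strand overlaps a match on the other, which makes a longer run of capitals.

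Ndufa11, chr17:56717686-56717725, plus strand: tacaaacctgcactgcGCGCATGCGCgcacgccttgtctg

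Ndufa6, chr15:82354351-82354390, minus strand: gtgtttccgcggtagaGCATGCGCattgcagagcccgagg

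Ndufa8, chr2:36049339-36049378, minus strand: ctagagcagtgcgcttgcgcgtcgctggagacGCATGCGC

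Ndufaf4, chr4:24897954-24897993, plus strand: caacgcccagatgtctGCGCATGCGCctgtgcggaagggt

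In Ndufa8 the 8 letters end on the base before the start. In Ndufaf5, the remaining promoter, they lie after the start. Ndufa11, Ndufa6 and Ndufa8 rose in Nf1-KO, and the assembly factors Ndufaf4 and Ndufaf5 did not pass the test.

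The letters AAGATGGCG, a site of the factor YY1, occurred in 5 of 39 promoters of members and in 1.40% of all promoters. Each of the 5 matches lay on the sense strand just after the start. All 5 genes rose in Nf1-KO, as did 34 of all 42 tested members. The windows below show the matches in capitals with their neighbouring bases. They begin at different distances from the start, and the matches begin from base 23 (Ndufc1) to base 36 (Ndufs4).

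Ndufa9, chr6:126849096-126849125, minus strand: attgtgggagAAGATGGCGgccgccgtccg

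Ndufc1, chr3:51408914-51408943, minus strand: cctgcggaacAAGATGGCGccgtccgtagt

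Ndufs4, chr13:114388045-114388074, minus strand: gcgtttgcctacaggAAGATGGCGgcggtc

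Ndufs6, chr13:73328433-73328462, minus strand: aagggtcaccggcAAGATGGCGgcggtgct

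Ndufs7, chr10:80249463-80249492, plus strand: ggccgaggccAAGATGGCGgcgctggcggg

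In Ndufa9 the match spans bases 30 to 38 after the start, and in Ndufs4 bases 36 to 44. The Ets-family letters CCGGAAG, a site of the factor GABP, were in the promoters of Ndufaf1, Ndufb6, Ndufb7, Ndufs3 and Ndufs8 (12.8%), against 8.86% of all promoters. All 5 of these genes rose too. The site of the oestrogen-related receptors, TCAAGGTCA, was in none of the 39 member promoters and in 0.423% of all promoters. None of these motifs overlapped another one in a member, and a match describes letters, not binding.

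Of the 43 genes, 42 were expressed high enough to be tested, and 34 of these rose in Nf1-KO, 2 fell (Ndufb5 and Ndufa4l2) and 6 did not pass the test. The median log2 fold change of the 42 was 0.22, against 0.00 over all tested genes. With quantile normalization, which forces the libraries to 1 distribution, the split was 22 higher and 6 lower. Members are abundant, so genes of a like level are the closer background: of the 404 tested genes at 100 RPKM or more on average, 62.4% rose and 28.5% fell, with a median of 0.19. Of the 31 members at that level, 28 rose and 1 fell, with a median of 0.23. Of the 334 such genes outside the respiratory lists used here, 186 rose (55.7%) and 113 fell (33.8%), with a median of 0.13 and quartiles of -0.17 and 0.34. The members' median thus lay inside the quartiles of other abundant genes, and no test of a difference from them was made. In bulk muscle, a change in the number of cells of a type and a change in RNA per cell cannot be told apart.

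On scaled levels, both Nf1-KO libraries lay above both Het libraries for 34 of the 42 genes, against 38.2% of all tested genes. They lay below for 4 genes (Ndufb5, Ndufa4l2, Ndufaf4 and Ndufaf5), against 4071 of all 10690 tested genes. The libraries overlapped for Ndufa12, Ndufb4, Ndufaf3 and Ndufaf6. Agreement between libraries was close. The coefficient of variation of a subunit between its 2 libraries had a median of 1.28% in Het and 1.08% in Nf1-KO, and the widest was 7.70%, that of Ndufb6 in Het. An exact permutation test of 2 libraries against 2 cannot go below p = 0.333, so the calls rest on the spread that limma pools over genes.

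**Figure D1:**
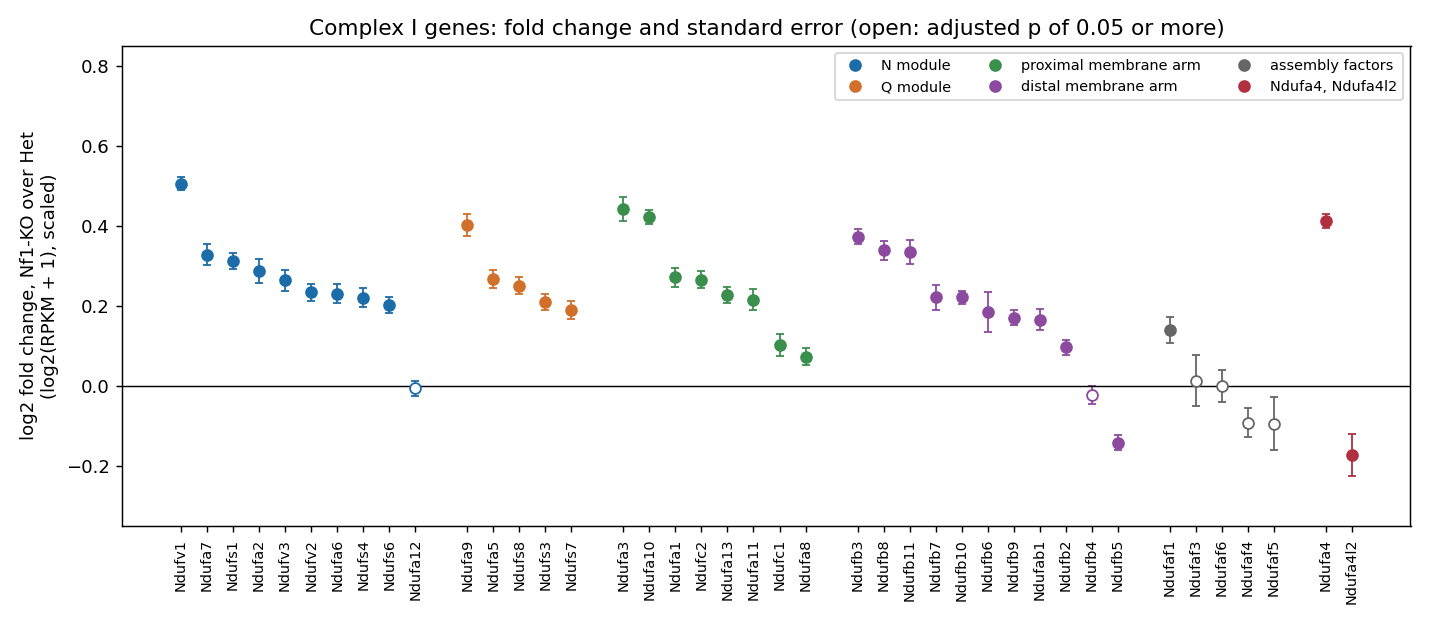
Log2 fold change of Nf1-KO over Het (y axis, scaled log2(RPKM + 1)) with its standard error for 41 of the 42 tested genes, grouped and coloured by role; open points did not pass the test. Ndufv1 has the highest point at 0.51, most subunits lie between 0.10 and 0.40, and 4 of the 5 assembly factors lie near or below 0 and are open.

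Of the 35 tested subunits, 32 rose, 1 fell and 2 did not pass the test. Their median log2 fold change was 0.23, with quartiles of 0.19 and 0.32. The 7 core subunits all rose, with a median of 0.25, and 25 of 28 accessory subunits rose, with a median of 0.22. As the plot of fold changes by role shows, members of each module spread widely around these medians.

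In the N module, 9 of 10 subunits rose (median 0.25). Ndufv1, which binds NADH and the flavin that takes its electrons, had the largest fold change of all subunits. It was at 241 and 238 RPKM in Het and at 364 and 364 RPKM in Nf1-KO (log2 fold change 0.51 ± 0.017 SE, limma adjusted p 4.1e-06). The groups were thus far apart compared with the gap between libraries. Ndufa7, an accessory subunit, was at 56.6 and 54.3 RPKM in Het and 74.9 and 74.2 in Nf1-KO, a log2 fold change of 0.33 ± 0.027. Ndufs6, which carries a zinc ion, moved less, from 156 and 156 RPKM to 189 and 194 RPKM (0.20 ± 0.020). Between these lay Ndufs1, the large iron-sulfur subunit that receives electrons from the flavin side (0.31), Ndufa2 (0.29), Ndufv3 (0.26), Ndufv2, which carries a further iron-sulfur cluster (0.23), Ndufa6 (0.23) and Ndufs4, known from a mouse model of Leigh syndrome (0.22). All 6 named last passed the test, and with quantile normalization Ndufv2 (0.046) and Ndufa6 (0.069) lost the call.

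Ndufa12, a subunit that takes the place of the assembly factor Ndufaf2 late in assembly, was the N-module member that did not pass. Its level was 268 and 262 RPKM in Het and 280 and 283 RPKM in Nf1-KO, so the deposited libraries did not overlap while the scaled ones did. The log2 fold change was -0.0053 ± 0.019 (limma adjusted p 0.84) with scaling and 0.089 without (limma adjusted p 0.0097). Its direction depended on the scaling. With quantile normalization it was called lower (-0.19, limma adjusted p 0.00017). Ndufa12 was above Ndufv1 in both Het libraries (ratios 1.11 and 1.10) and below it in both Nf1-KO libraries (0.769 and 0.778).

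All 6 subunits of the Q module rose, with a median of 0.26. Ndufa9, an accessory subunit with a bound nucleotide, went from 187 and 178 RPKM to 259 and 257 RPKM (log2 fold change 0.40 ± 0.027). Its libraries did not overlap between the groups. Ndufs7, which holds the last iron-sulfur cluster before ubiquinone, was at 303 and 308 RPKM in Het and 378 and 367 RPKM in Nf1-KO (0.19 ± 0.022). Ndufs3, another core subunit, was at 243 and 237 RPKM and then at 294 and 298 RPKM (0.21 ± 0.020). Ndufa5 (0.27) and Ndufs8, which carries a pair of iron-sulfur clusters (0.25), lay in between. With quantile normalization Ndufs7 (-0.019) and Ndufs3 (0.039) lost their calls, and Ndufs7 turned in direction.

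In the proximal membrane arm, all 8 tested subunits rose (median 0.25). Ndufa10, a kinase-like accessory subunit, was at 238 and 238 RPKM in Het and 340 and 342 RPKM in Nf1-KO (log2 fold change 0.42 ± 0.017). Ndufa3 was at 110 and 104 RPKM and then at 154 and 156 RPKM (0.44 ± 0.030). These were the largest changes of the membrane arm. Ndufa8, an intermembrane-space subunit held together by disulfide bonds, changed least among subunits that rose. Its level was 212 and 208 RPKM in Het and 233 and 239 RPKM in Nf1-KO (0.073 ± 0.021, limma adjusted p 0.028). Ndufc1 was similar, at 217 and 206 RPKM and then at 244 and 241 RPKM (0.10 ± 0.028, limma adjusted p 0.024). Both calls were lost under several other settings. With quantile normalization Ndufa8 was called lower (-0.11, limma adjusted p 0.0040), and Ndufc1 had a fold change below 0 without a call (-0.053). The other proximal subunits lay between 0.22 for Ndufa11 and 0.27 for Ndufa1, with Ndufa13, also known as GRIM-19, at 0.23 and Ndufc2 at 0.27.

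The distal membrane arm had the lowest median, 0.19, with 9 of 11 subunits higher, 1 lower and 1 that did not pass. Ndufb3 was at 131 and 132 RPKM in Het and 181 and 183 RPKM in Nf1-KO (log2 fold change 0.37 ± 0.019). Ndufb8, a subunit often blotted as a marker of assembled complex I, was at 127 and 131 RPKM and then at 173 and 176 RPKM (0.34 ± 0.024). Both were clear of overlap. Ndufb9, an LYR-motif protein that docks an acyl carrier protein, was the most abundant subunit per length, at 526 and 517 RPKM in Het and 621 and 633 RPKM in Nf1-KO (0.17 ± 0.018). With quantile normalization it was called lower instead (-0.072, limma adjusted p 0.0038). Ndufb10, which follows Ndufb9 in level within the distal arm, went from 298 and 295 RPKM to 370 and 370 RPKM (0.22 ± 0.017). Ndufab1, that acyl carrier protein itself, had a log2 fold change of 0.17. The remaining subunits that rose were Ndufb11 (0.33), Ndufb7 (0.22), Ndufb6 (0.19) and Ndufb2 (0.096). With quantile normalization Ndufb2 was called lower (-0.074, limma adjusted p 0.0063), and Ndufb10 (0.015), Ndufab1 (0.0015), Ndufb7 (0.067) and Ndufb6 (0.16) lost their calls. Ndufb2 lost its call without the variance trend, and Ndufb6 in 3 alternatives in all.

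Ndufb5 was the single subunit that fell. It was at 245 and 240 RPKM in Het and at 233 and 236 RPKM in Nf1-KO. The groups did not overlap, and the log2 fold change was -0.14 ± 0.019 (limma adjusted p 0.0013). Without scaling it was -0.048 and did not pass (limma adjusted p 0.079). Ndufb4 did not pass with scaling: it was at 280 and 279 RPKM in Het and 288 and 299.6 RPKM in Nf1-KO (-0.022 ± 0.023, limma adjusted p 0.45). Without scaling its log2 fold change was 0.072 (limma adjusted p 0.041), and with quantile normalization it was called lower (-0.21, limma adjusted p 0.00029). Ndufb4 has near-identical copies in the mouse genome, so its level is uncertain.

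**Figure D2:**
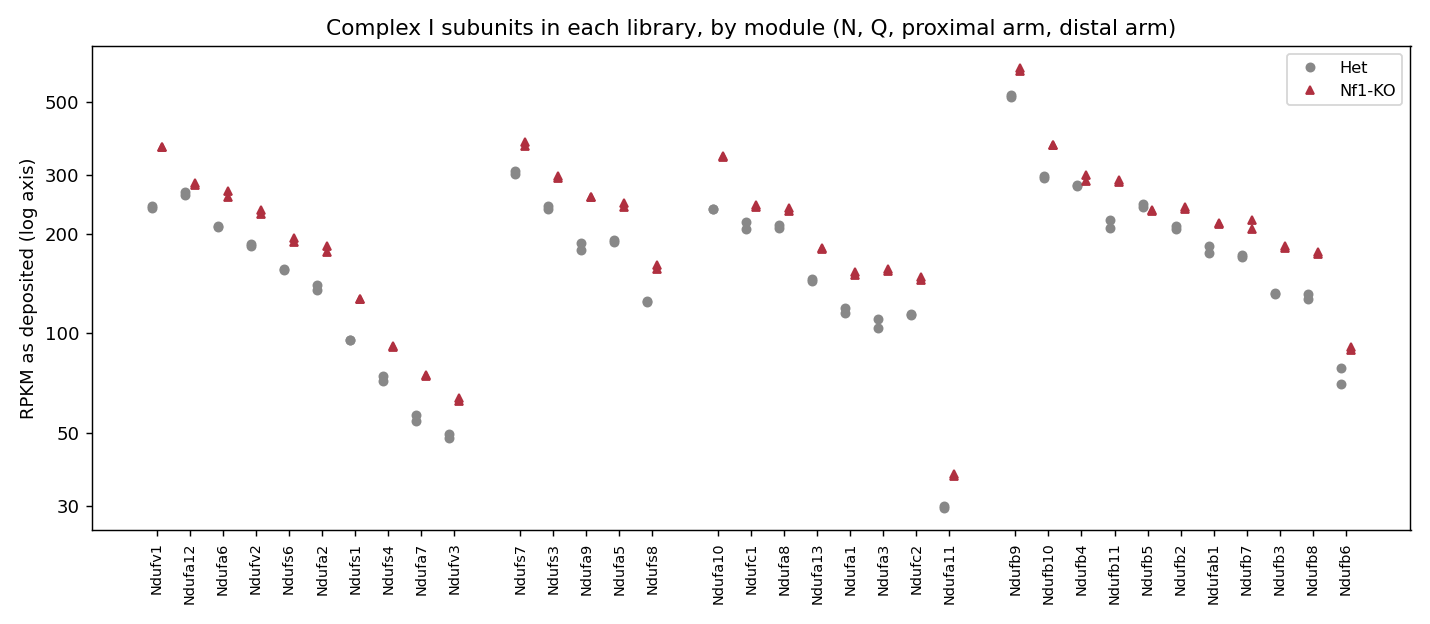
RPKM as deposited (y axis, log scale) of 34 of the 35 subunits in each library, ordered by mean level within the N module, Q module, proximal arm and distal arm; grey circles are the 2 Het libraries and red triangles the 2 Nf1-KO libraries. The triangles lie above the circles for every subunit drawn but Ndufb5, and the highest level is that of Ndufb9.

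In the plot of levels by library, subunits differed from each other far more than the groups did. The lowest subunit per length was Ndufa11, at 30.03 and 29.67 RPKM in Het, and 29 of the 35 subunits were above 100 RPKM in Het. Over the 35 subunits, fold change and level had a Spearman correlation of -0.18, and fold change and the length of the longest transcript one of -0.069. Both describe genes that share the same 4 libraries.

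Unequal changes altered the composition of the complex I transcript pool, which does not depend on the scaling between libraries. Summed over the 35 subunits, the deposited level was 6528 and 6437 RPKM in Het and 8095 and 8181 RPKM in Nf1-KO. This sum, unlike the shares, depends on scaling: it was 25.5% higher before scaling, which lowers the difference. The share of this sum was higher in both Nf1-KO libraries for 16 subunits, lower in both for 11 and overlapping for 8. Ndufv1 went from 3.70% ± 0.0048 (SD, n = 2) of the sum to 4.48% ± 0.031. In the other direction, Ndufb5 went from 3.74% ± 0.011 to 2.88% ± 0.0054, Ndufb4 from 4.31% ± 0.026 to 3.61% ± 0.072, and Ndufa12 from 4.09% ± 0.017 to 3.46% ± 0.0023.

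**Figure D3:**
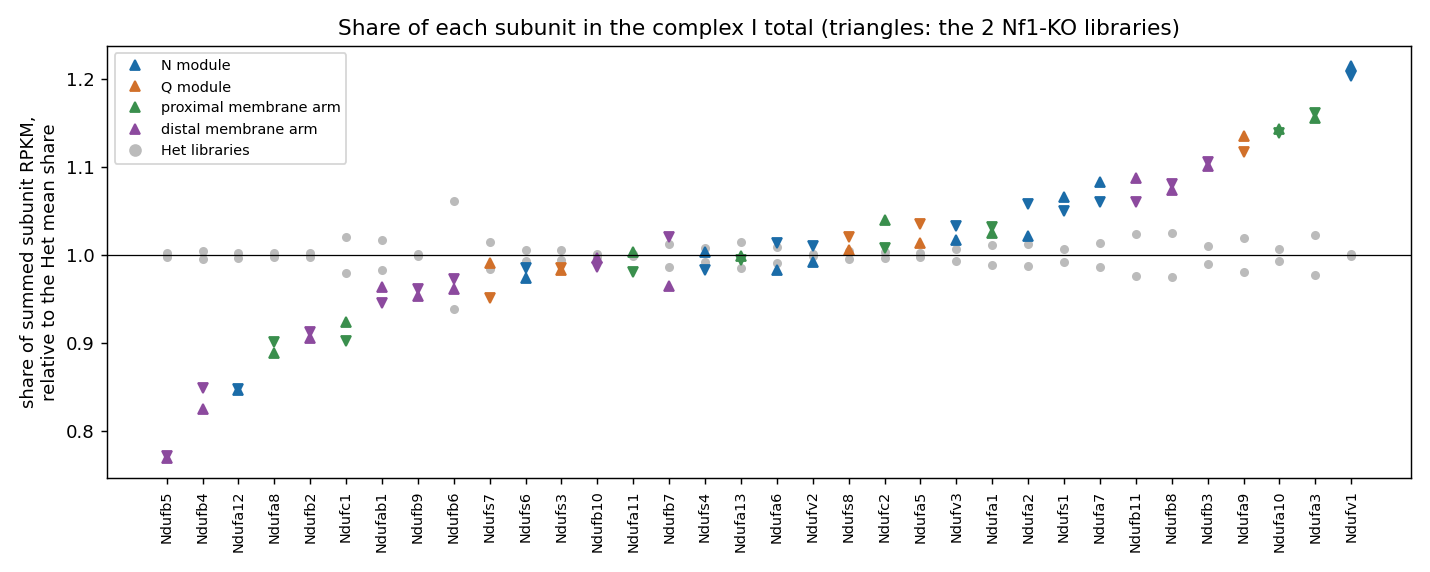
Share of each of 34 of the 35 subunits in the summed RPKM of complex I subunits, divided by its mean share in Het (y axis), ordered from left to right by the change; grey dots are the 2 Het libraries and triangles, coloured by module, the 2 Nf1-KO libraries. Ndufb5 lies lowest at 0.770 of its Het share and Ndufv1 highest at 1.21.

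The plot of shares orders the subunits by this change. Distal-arm subunits together made up 37.7% and 37.8% of the sum in Het and 35.9% and 36.1% in Nf1-KO. The Q module went from 21.5% and 21.6% to 22.9% and 22.6%. Shares of the N module (22.6% in both Het libraries, then 22.9% and 23.0%) and the proximal arm (18.1% and 18.0%, then 18.4% and 18.3%) moved by less than 0.4 percentage points. Core subunits summed to 0.311 and 0.315 of the accessory ones in Het and to 0.345 and 0.340 in Nf1-KO. Within the N module, Ndufv2 stood at 0.771 of its partner Ndufv1 in both Het libraries and at 0.630 and 0.648 in Nf1-KO. Ndufb5 was level with Ndufv1 in Het (ratios 1.01 and 1.01) and at 0.640 and 0.648 of it in Nf1-KO.

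Assembly factors with an Nduf name help build the enzyme without staying in it. Of 5 tested, 1 rose and 4 did not pass, with a median log2 fold change of 0.00031. Ndufaf1, a member of the complex that builds the membrane arm, rose from 24.99 and 26.27 RPKM to 30.2 and 30.3 RPKM (0.14 ± 0.033, limma adjusted p 0.014). Without Het replicate 1 this call was lost (0.097, limma adjusted p 0.075). Ndufaf3, which acts with Ndufaf4 early in the Q module, was at 9.59 and 9.12 RPKM in Het and 10.8 and 9.43 RPKM in Nf1-KO (0.013 ± 0.064). Ndufaf4 was at 12.6 and 12.1 RPKM and then at 12.2 and 12.4 RPKM (-0.092 ± 0.036). Their deposited libraries overlapped.

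Ndufaf5, which modifies Ndufs7, was near the filter at 0.77 and 0.89 RPKM in Het and 0.71 and 0.82 RPKM in Nf1-KO (-0.094 ± 0.066). Ndufaf6 was at 11.3 and 11.7 RPKM and then at 11.9 and 12.7 RPKM (0.00031 ± 0.041). Limma adjusted p-values of the 4 genes that did not pass ranged from 0.076 for Ndufaf4 to 0.996 for Ndufaf6. Ndufaf2, the paralogue that Ndufa12 replaces, was listed at 0.08, 0, 0.03 and 0 RPKM in the order Het, then Nf1-KO, and was not tested. Summed over the 5 tested factors, the deposited level was 59.3 and 60.0 RPKM in Het and 65.8 and 65.6 RPKM in Nf1-KO. That is 10.1% higher before scaling, which lowers the difference. The sum of subunits over that of these factors, a ratio free of scaling, was 110.1 and 107 in Het and 123 and 125 in Nf1-KO.

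Of 15 complex I assembly factors with other names, 13 were tested: 7 rose, 1 fell and 5 did not pass (median 0.16). Coa1 was not analysed here, and Sfxn4 was under the filter. Tmem70, which acts in the assembly of ATP synthase and complex I, went from 30.9 and 30.8 RPKM to 41.1 and 42.9 RPKM (0.34 ± 0.030, limma adjusted p 0.00022). Aifm1, a flavoprotein of the intermembrane space, had a log2 fold change of 0.24. Chchd4, with which Aifm1 works to import and oxidise cysteine-rich proteins such as Ndufa8 and Ndufb7, fell from 12.3 and 12.3 RPKM to 10.3 and 10.1 RPKM (-0.33 ± 0.034, limma adjusted p 0.00042). Ecsit, a partner of Ndufaf1, was at 46.1 and 45.3 RPKM and then at 48.9 and 48.2 RPKM (-0.0059 ± 0.024, limma adjusted p 0.86). The count of 7 was 2 without the filter on low values and 10 without scaling.

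A pair of Nduf genes encodes no complex I subunit. Ndufa4 was first purified with complex I and belongs to cytochrome c oxidase, complex IV. It had the highest level of all members, 662 and 668 RPKM in Het and 934 and 957 RPKM in Nf1-KO, and rose by 0.41 ± 0.018 (log2, limma adjusted p 1.2e-05). Its hypoxia-inducible relative Ndufa4l2 was at 6.59 and 6.16 RPKM in Het and 5.70 and 6.14 RPKM in Nf1-KO, and fell (-0.17 ± 0.052, limma adjusted p 0.034). The deposited libraries almost touched. Its call was lost without scaling (-0.092, limma adjusted p 0.19), without Het replicate 1 (-0.14, limma adjusted p 0.14), without Nf1-KO replicate 1 (-0.12, limma adjusted p 0.17) and under 3 further settings. The ratio of Ndufa4 to Ndufa4l2 was 100.4 and 108 in Het and 164 and 156 in Nf1-KO.

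The mitochondrial DNA encodes the remaining core subunits, and of these mt-Nd4 alone was analysed here. It was at 19261 and 20349 RPKM in Het and 19434.5 and 19713 RPKM in Nf1-KO, so the deposited libraries overlapped. Its log2 fold change was -0.11 (limma adjusted p 0.016) with scaling and -0.016 (limma adjusted p 0.63) without. Relative to the summed nuclear subunits, mt-Nd4 was 2.95 and 3.16 in Het and 2.401 and 2.410 in Nf1-KO, a difference of -21.3% with no overlap in a ratio that needs no scaling.

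Nuclear genes of the other respiratory complexes had summed levels further above Het than those of complex I. Before scaling, summed levels were 48.2% above Het for complex II, 35.7% for complex III, 39.2% for complex IV and 38.6% for complex V. For complex I the figure was 25.5%, and scaling lowers each of them. All 4 genes of complex II rose (median log2 fold change 0.42), as did all 8 tested of complex III (0.35), all 13 of complex IV (0.42) and 15 of 16 of complex V (0.35). Uqcr11 of complex III was listed at 0 in every library and was not tested. Atpif1, the ATP synthase inhibitor, was at 6.20 and 5.54 RPKM in Het and 6.52 and 6.79 RPKM in Nf1-KO and did not pass (0.076 ± 0.057, limma adjusted p 0.31). Sdhb, the iron-sulfur subunit of complex II, had a log2 fold change of 0.58, and Cox6a2, the heart and muscle form of a complex IV subunit, one of 0.57. Both were above Ndufv1.

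The ratio of complex I to each other complex was lower in both Nf1-KO libraries than in both Het libraries. Complex I over complex II was 5.35 and 5.40 in Het and 4.51 and 4.59 in Nf1-KO. Over complex IV it was 1.14 and 1.13, then 1.03 and 1.02. Over complex III the difference was -7.49% and over complex V -9.40%. These ratios come from within each library, so scaling leaves them as they are, and 2 libraries against 2 cannot give a permutation p under 0.333.

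**Figure D4:**
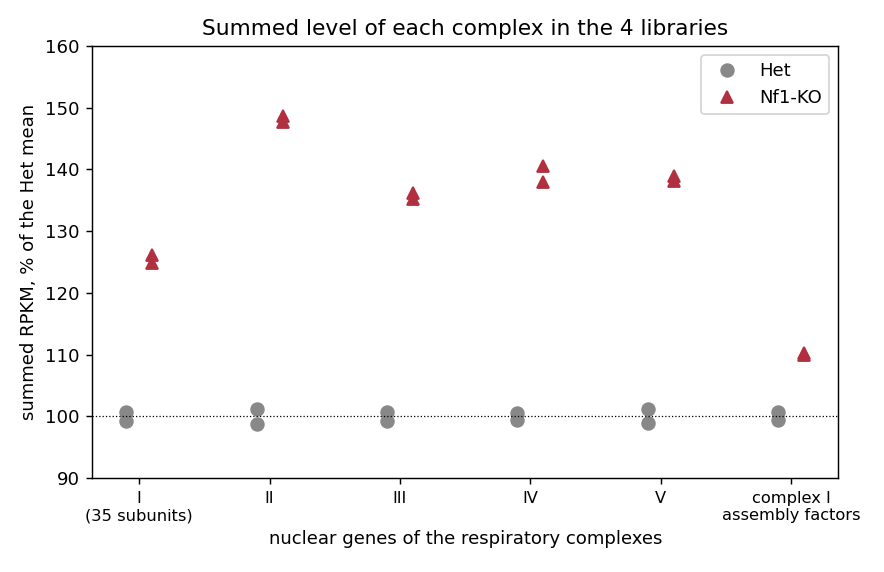
Summed RPKM, as deposited and not scaled, of the nuclear genes of each respiratory complex and of the 5 tested complex I assembly factors. Each library is shown as a percent of the Het mean (y axis, starting at 90), with grey circles for Het and red triangles for Nf1-KO. Complex I lies lowest of the 5 complexes, 25.5% above Het, complex II lies highest at 48.2%, and the assembly factors are at 10.1%.

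The plot of summed levels shows the libraries of a group close together in each complex. In Nf1-KO the libraries of complex I lie apart from those of every other complex, while those of complexes IV and V overlap.

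Facts of the whole libraries bear on these values. Nf1 itself was at 1.09 and 1.01 RPKM in Het and 0.89 and 0.85 RPKM in Nf1-KO (log2 fold change -0.18 ± 0.057, limma adjusted p 0.041), and the call was lost without any 1 of the libraries and without scaling. At this low level the pseudocount sets the size: the log2 fold change was -0.33 (limma adjusted p 0.045) with a pseudocount of 0.1 and -0.24 with 0.5. The authors' deposited table gives Nf1 a log2 fold change of -0.38 (adjusted p 0.0026). All 8 muscle fibre markers were present: 3 rose (Myh1, Myh2 and Mb) and 5 fell (Acta1, Ckm, Tnnt3, Pvalb and Myh4), and their sum was 51148 and 51260 RPKM in Het and 43372 and 42994 RPKM in Nf1-KO. Myh4, the myosin of the fastest glycolytic fibres, was at 6767 and 7015 RPKM in Het and 3508 and 3428 RPKM in Nf1-KO. Myh2, the myosin of fast oxidative fibres, was at 448 and 471 RPKM and then at 851 and 829 RPKM, and Mb, the oxygen carrier myoglobin, at 2933 and 2906 RPKM and then at 5099 and 5135 RPKM. Before scaling, which lowers the difference, summed markers of other cells were higher in both Nf1-KO libraries for each list. For Schwann cells 5 of 5 rose (9.88 and 9.94 RPKM against 24.4 and 22.7). For fibroblasts 4 of 5 rose (79.6 and 77.2 against 115 and 115) and Dpt did not pass (log2 fold change -0.071). For leukocytes 2 of 2 tested rose (1.20 and 1.60 against 3.59 and 3.27, Adgre1 at 0). For adipocytes Fabp4 and Cidec rose of 3 tested (173 and 179 against 252 and 249, nearly all of it Fabp4). Adipoq, Plin1 and Lep had lower means in Nf1-KO. In endothelium 2 of 5 rose and Kdr fell (69.7 and 70.0 against 75.7 and 74.8). With scaling the median log2 fold change of the endothelial markers was 0.0011, and Emcn had a lower deposited mean in Nf1-KO. Of the heart muscle list only Myl4 was tested, and it rose. The sum of that list (5.5 and 5.0 against 7.06 and 7.12) was nearly all Myl4, with Myl7 at 0. Of the untested heart markers, Nppa and Ryr2 had higher means in Nf1-KO and Tnni3 a lower one. The part of fibre types and of these cells in the complex I values was not tested.

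Annotation limits some single genes. In GENCODE M21 (build GRCm38, another build than the mm9 named for these data, so the only coordinates given are those of the RefSeq promoter windows), the members lie on 16 chromosomes, with at most 5 on one, and 19 of 43 have exons that overlap another gene. Of these 19, 15 rose and Ndufaf2 was not tested, against 34 that rose of all 42 tested members. They include Ndufb5 on chromosome 3, which overlaps Mrpl47 on the opposite strand. Whether reads were counted by strand is not given in the sources used here, so reads of such pairs cannot be told apart. Ndufv1 on chromosome 19, Ndufa10 on chromosome 1 and Ndufa12 on chromosome 10 overlap no other gene.

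In the authors' deposited table, made from the same libraries, 15% of 13985 genes were higher at an adjusted p under 0.05. By that same count, the authors' deposited table has 30 of the 42 tested members higher, 1 lower and 11 not called. Calls here and in the authors' deposited table were shared by 31 members, all with the same sign, and 5 were called here only: Ndufa4l2, Ndufa8, Ndufaf1, Ndufb2 and Ndufc1. The authors' deposited table gives Ndufv1 a log2 fold change of 0.50 and Ndufb5 one of -0.15. Fold changes of subunits differed from the authors' deposited table by at most 0.016. Mean normalized counts of subunits in the authors' deposited table ran from 2075 for Ndufb6 upward. Of the assembly factors, the authors' deposited table has Ndufaf4 at 2125, Ndufaf1 at 1919.8 and Ndufaf5 lowest at 104.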

How the data were processed

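RNA of 4 libraries was sequenced after TruSeq RNA version 2 preparation. STAR 2.4.2a, DESeq2 and build mm9 are named, without a role, per the submitters' processing notes. The authors deposited 1 value per gene and library, read from the values as RPKM: they sum to between 532146 and 546969, and the ratio of the deposited mean signal (mean normalized count) to RPKM rises with transcript length with a log-log slope of 0.954 over 8498 genes. Per the file headers, the authors' comparison table also holds log2 fold changes, a test score and p-values. Read depth per library is not given, so no counting intervals were computed.

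Of 34682 rows, 33 with a number for a name were left out. Other genes listed in several copies were represented by their highest row, and no Nduf name had copies. Scaling between libraries used trimmed log ratios (without the outer 30% of ratios and 5% of abundances; factors 0.969, 0.967, 1.03 and 1.03). The test took genes that reached 0.5 RPKM in 2 or more libraries, as log2(RPKM + 1) in limma 3.58.1 (R 4.3.3, variance trend, 2 residual degrees of freedom, two-sided, Benjamini-Hochberg), after the procedure was tested on simulated data. Shares, ratios and motifs were computed in Python 3.11.15.

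The members and lists were chosen with earlier results of these data known. Values in each library are given for the 2 most abundant members of each role group. They are also given for the 2 with the largest and the 2 with the smallest fold change in each group. The same holds for every member that fell, did not pass or was not tested, and for Ndufa4 and Ndufa4l2. Of other lists, single genes were named by p or for going against their list. Some of these have only a fold change or a direction. The level of 100 RPKM for abundant genes was chosen after the values were seen. Protein sequences were not used here. The values of 1 member are not reported here; it is counted in the totals.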

Additional observations from a re-analysis of the deposited data

How the results depend on the processing

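Of the 36 members that rose or fell, 21 kept call and direction under all 15 alternatives (other pseudocounts, filters, scalings, variance models, row handling, a replicate block and leaving out each library). The median log2 fold change of members was 0.21 with no filter on low values, 0.23 with at least 1 RPKM in every library, 0.32 unscaled, 0.24 with upper quartile scaling, 0.078 with quantile normalization, 0.19 with scaling from genes of at least 20 RPKM (chosen after seeing the data) and 0.22 to 0.23 with 1 library left out. Over abundant genes of at least 100 RPKM it moved likewise, to 0.058 with quantile normalization and 0.29 unscaled. The number higher was 22 with quantile normalization, and elsewhere between 30 and 36. The number lower was 1 with no filter, 0 unscaled, 6 with quantile normalization, 1 with the replicate block and 1 to 2 with a library left out. Other assembly factors higher numbered 2 with no filter and 4 to 7 with a library left out.

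mt-Nd4 had -0.12 with no filter (limma adjusted p 0.097), -0.016 unscaled, 0 with quantile normalization and -0.11 with no variance trend (limma adjusted p 0.095). With a library left out it ranged from -0.16 to -0.076, and the call was lost without Nf1-KO replicate 1 (-0.093). Nf1 had -0.33 and -0.24 with pseudocounts of 0.1 and 0.5, which kept its call. It had -0.19 with no filter, -0.13 unscaled, -0.18 with the replicate block (limma adjusted p 0.056) and -0.21 to -0.15 with a library left out, and lost its call in each of these.

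Directions turned as follows, and the cause was not tested. Ndufa12 was at 0.0051 with at least 1 RPKM in every library, 0.089 unscaled, 0.013 with upper quartile scaling and -0.024 to 0.011 with a library left out. With quantile normalization it was called lower (-0.19), as was Ndufb4 (-0.21). Ndufb4 was at 0.072 unscaled and -0.039 to 0.014 with a library left out. With quantile normalization Ndufa8 (-0.11), Ndufb2 (-0.074) and Ndufb9 (-0.072) were also called lower. Ndufc1 was at -0.053 and Ndufs7 at -0.019, without a call. Ndufaf3 was at -0.016 with scaling from genes of at least 20 RPKM and -0.067 to 0.11 with a library left out. Ndufaf6 was at -0.012 with no filter, -0.029 with scaling from genes of at least 20 RPKM and -0.029 to 0.048 with a library left out.

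Deviations of Het replicate 1 and Nf1-KO replicate 1 from their group means had a correlation of -0.018 over genes. This value alone cannot show whether the numbers pair the samples. With the replicate block 34 members were higher and 1 was lower. With 2 libraries a group, a left-out library leaves a lone sample assumed to vary like the other group. Low genes are the least precise: the authors' deposited table gives Ndufaf5 a mean normalized count of 104 and a standard error of 0.28 on its log2 fold change.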
